A study of Mus musculus with 31 samples.

Results

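The GDNF family of ligands and receptors was followed through mouse melanomas and cultured melanoma cells with and without the glucocorticoid receptor. The 8 genes are the ligands Gdnf, Nrtn (neurturin) and Artn (artemin), the co-receptors Gfra1, Gfra2 and Gfra3, the receptor tyrosine kinase Ret, and Ncam1. They were chosen by the counts of these tumors, because Gfra1 and Gfra2 were higher in receptor-knockout than in parental tumors, and each was found by gene symbol among the 39179 genes of the deposited count table. Ligands of this family bind a GFRA protein that is held to the membrane by a lipid anchor and has no kinase, and the complex then activates RET. GDNF prefers GFRA1, neurturin prefers GFRA2 and artemin prefers GFRA3, and GFRA1 can also pass the GDNF signal to the adhesion molecule NCAM without RET. The family is best known for the survival of peripheral and enteric neurons and for growth of the kidney bud, and melanocytes share a neural crest origin with many of those neurons.

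The study asked what glucocorticoid (GC) does to melanoma growth and whether the glucocorticoid receptor (GR, gene Nr3c1) of the tumor cells is needed. Line 20967 came from a melanoma of a C57BL/6 mouse carrying Nras+LSL-G12D;Tyr::CreERT2+/o, and it was injected intradermally into wild type C57BL/6 mice. GRKO cells were made from it with Cas9 and a guide to Nr3c1. RNA of whole tumors and of cultures was read by 3' end sequencing, in which each transcript gives reads near its 3' end.

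The 20 tumors made 4 groups of 5: parental control, parental GC, GRKO control and GRKO GC. GC was clobetasol propionate, given on the skin as a 0.05% ointment 3 times a week. The study names topical cetraben cream as the control, so GC against control in tumors also compares an ointment with a cream. The 11 cultures were parental cells with DMSO (n = 3), parental cells with GC (n = 2), GRKO cells with DMSO (n = 3) and GRKO cells with GC (n = 3), each for 48 h. The library names give the culture dose as 1 µM, and the treatment label gives it as 10 µM. The labels do not give the age of the mice. GRKO cells are 1 single-cell clone, so an effect of losing GR and a property of the clone cannot be told apart. The host cells in a GRKO tumor keep their GR. CreERT2 in the mouse of origin was driven by Tyr, a pigment cell gene. Whole tumor RNA cannot tell fewer cells of a type from less RNA per cell.

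Each tumor library held 15528066 to 26386770 counts and each culture library 14441166 to 22463188. Levels are in CPM, which is counts scaled to a common library size by edgeR's TMM method, within the tumors and within the cultures. A floor of 3 counts corresponds to 0.114 to 0.208 CPM. Of the 8 members, 6 passed the filter on low counts in tumors (Gfra3 and Artn did not) and 6 in cultures (Gfra3 and Ret did not). Reads near the 3' end do not grow with transcript length, and levels were not compared between members.

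Libraries of 1 tumor group stood apart. In GRKO control tumors 1, 2, 3 and 5 the 50 most abundant genes took 30.7%, 27.4%, 24.9% and 32.7% of the counts, against 17.6% in GRKO control tumor 4 and 17.3% to 23.7% in the other 15 tumors. The same 4 libraries had a count in 13442, 14887, 15150 and 14335 genes, and GRKO control tumor 4 in 16980. Mitochondrial genes took 0.587% to 1.15% of the counts in GRKO control tumors and 1.25% to 2.47% in the other tumors. Effects of GC in GRKO tumors on Nrtn, Gfra1, Gfra2, Ret, Ncam1 and the called pathway genes other than Rarb are therefore also given with the share of the 50 most abundant genes as a covariate, an alternative chosen after seeing the data. The share itself differed between most GRKO control tumors and the GRKO GC tumors, so the covariate also takes up part of the GC contrast. A call lost with it therefore cannot separate the make-up of the libraries from an effect of GC. The covariate was not run for tumors against cultures.

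Nr3c1, the targeted gene, had 63.4, 57.1, 44.9, 55.6 and 52.2 CPM in parental control tumors, 53.4, 24.4, 48.2, 37.3 and 49.8 in parental GC tumors, 20.7, 27.3, 31.4, 31.8 and 23.5 in GRKO control tumors and 47.9, 21.7, 58.0, 32.5 and 49.4 in GRKO GC tumors. In cultures it had 33.2, 30.0 and 35.6 CPM in parental DMSO, 39.5 and 33.4 in parental GC, 24.8, 21 and 16.4 in GRKO DMSO and 20.9, 22.5 and 13.1 in GRKO GC cells. Every GRKO culture was below every parental culture, and transcript remained in all of them. A 3' read outside the edited site does not check the edit itself. In a comparison of GRKO with parental cells under GC, Nr3c1 had a log2 fold change of -0.95 (edgeR adjusted p = 0.0384), and under DMSO -0.67 (edgeR adjusted p = 0.0840).

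Tsc22d3, a direct GR target also called GILZ, had 14.5, 10.6 and 15.4 CPM in parental DMSO cells and 116 and 114 in parental GC cells, while GRKO cells had 15.9, 18.2 and 19.5 with DMSO and 20.5, 14.5 and 17.0 with GC. It thus rose with GC in parental cells (log2 fold change 3.09, edgeR adjusted p = 2.28e-05), while the effect in GRKO cells was -0.05 (edgeR adjusted p = 0.984). The difference between those effects was 3.14 (edgeR adjusted p = 0.000332). Per1, a clock gene that GR induces, had a log2 fold change of 2.77 in parental cells (edgeR adjusted p = 0.000337) and -0.23 in GRKO cells (edgeR adjusted p = 0.976), with a difference of 3.00 (edgeR adjusted p = 0.00415). Fkbp5, a co-chaperone of GR, had 2.33 in parental cells (edgeR adjusted p = 0.0248, called in 5 of 11 alternatives) and -0.39 in GRKO cells, and the difference of 2.72 did not pass (edgeR adjusted p = 0.102, called in 2 of 16 settings). For Tsc22d3 and Per1 the cultures thus separated by genotype as labelled.

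In tumors Tsc22d3 rose with GC in both genotypes, from 42.1 to 88.5 CPM in parental control tumors to 181 to 460 with GC, and from 45.4 to 89.1 CPM in GRKO control tumors to 170 to 250 with GC. The log2 fold changes were 2.34 in parental tumors (edgeR adjusted p = 1.61e-05) and 1.77 in GRKO tumors (edgeR adjusted p = 0.000403), and their difference did not pass the test (edgeR adjusted p = 0.347). With the covariate the effect in GRKO tumors was 1.45 (edgeR adjusted p = 0.0155). Per1 likewise rose in both genotypes, by 2.19 in parental tumors (edgeR adjusted p = 0.000147) and 1.29 in GRKO tumors (edgeR adjusted p = 0.00744, and 0.0287 with the covariate), with no call on the difference (edgeR adjusted p = 0.179).

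Fkbp5 differed from these. It had 54.9 to 86.3 CPM in parental control and 38.6 to 207 in parental GC tumors, which overlapped (1.02, edgeR adjusted p = 0.183), and 14.2 to 35.9 CPM in GRKO control and 59.7 to 133 in GRKO GC tumors, which did not (2.03, edgeR adjusted p = 0.00269). Of the 5 parental GC tumors, 4 lay above every parental control, and the 1 at 38.6 CPM lay below every parental control. With the covariate the effect in GRKO tumors was 1.24 (edgeR adjusted p = 0.137), and the genotype difference did not pass (edgeR adjusted p = 0.243). For none of these 3 genes did the GC effect differ between tumor genotypes by the test.

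The labels say melanoma, and markers of the pigment lineage were sparse. Tyr, the enzyme that starts melanin synthesis, had 0 counts in all 31 libraries, and 9 or 10 of 12 melanocyte genes, Dct, Mlana, Sox10 and Kit among them, were at or under 3 counts in every sample of each culture group. Mitf, the transcription factor of the lineage, was present in cultures at a mean of 10.2 CPM in parental DMSO, 10.6 in parental GC, 3.96 in GRKO DMSO and 5.25 in GRKO GC cells.

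A gene was called when edgeR's quasi-likelihood test gave a Benjamini-Hochberg adjusted p under 0.05 and a fold change of at least 1.5. Gfra1 and Gfra2 get no test in tumors because the choice of members used them there. Of the 4 members with a test for GC in parental tumors, edgeR called 0, where 0.779% of all genes were called; 1 had an unadjusted p under 0.05 and DESeq2 called 0. In GRKO tumors GC called 1 of 4 (Ncam1, higher), where 6.42% of all genes were called. The test of the genotype difference in GC response called 0 of 4 with edgeR, where 0.195% of all genes were called, with 1 at an unadjusted p under 0.05 and 1 called by DESeq2. GRKO against parental cells called 1 of 6 under DMSO (Gfra2, lower), where 8.22% of all genes were called. Under GC it called 2 of 6 (Gfra2 and Ncam1, lower), where 5.55% were called. GC in parental cells called 1 of 6 (Ncam1, higher), where 0.878% were called.

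GC in GRKO cells called 0 of 6 members with edgeR, and 0% of all genes were called: 237 genes had an unadjusted p under 0.05 and DESeq2 called 0. Among the members, 1 had an unadjusted p under 0.05 in that comparison. The genotype difference in GC response of cells called 0 of 6 with edgeR, where 0.295% were called, with 2 at an unadjusted p under 0.05 and 1 called by DESeq2. Parental control tumors against parental DMSO cells called 3 of 5, where 46.7% of all genes were called. GRKO control tumors against GRKO DMSO cells called 3 of 5, where 54.8% were called. Ret is in both counts and passed the filter only through tumors. At such shares a call between tumor and culture is no result about the family. GRKO against parental tumors was used to choose the members, so nothing is read from the 2.25% of genes called there without GC and the 0.634% called with GC.

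Neurturin was the one ligand with more than 3 counts in every tumor. Nrtn, the preferred ligand of GFRA2, had 3.38, 4.89, 6.07, 4.82 and 5.03 CPM in parental control tumors and 9.24, 12.5, 4.86, 22.5 and 9.75 in parental GC tumors. All GC tumors but replicate 3 lay above every control, and replicate 3 lay inside the control range. GRKO control tumors had 7.33, 14.2, 8.20, 7.34 and 1.72 CPM and GRKO GC tumors 5.35, 5.01, 5.44, 6.78 and 5.27. The GRKO GC tumors lay close together inside the wide spread of the GRKO controls. The means were 4.84 ± 0.962 and 11.8 ± 6.59 CPM in parental control and parental GC tumors, and 7.75 ± 4.41 and 5.57 ± 0.695 in GRKO control and GRKO GC tumors (SD, n = 5).

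In parental tumors the log2 fold change of Nrtn with GC was 1.28 (SE 0.41, edgeR adjusted p = 0.164), and a two-sided exact permutation test of the 5 against 5 tumors gave p = 0.0317, where the smallest possible is 0.00794. In GRKO tumors it was -0.48 (edgeR adjusted p = 0.499), and -0.56 with the covariate (edgeR adjusted p = 0.693). The difference between these effects was 1.76 (SE 0.58, edgeR adjusted p = 0.119). DESeq2 gave 1.79 with an adjusted p of 0.0408, and all other alternatives gave adjusted p from 0.0642 to 0.509, the highest of them with the covariate. Neither the GC effect in parental tumors nor its difference from GRKO tumors therefore passed edgeR's test.

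Nrtn was near the floor in cultures, at 0.390, 0.801 and 1.59 CPM in parental DMSO, 0.759 and 0.723 in parental GC, 1.09, 0.0477 and 0 in GRKO DMSO and 0.0571, 1.09 and 0.316 in GRKO GC cells. Every tumor was above every culture, and the 4 culture groups overlapped. Parental control tumors exceeded parental DMSO cells by a log2 fold change of 2.33 (SE 0.77, edgeR adjusted p = 0.0128), beside a median of 0.37 over all genes tested. Without parental DMSO culture 1 the edgeR adjusted p was 0.0724, and without culture 2 it was 0.0511. GRKO control tumors exceeded GRKO DMSO cells by 4.28 (SE 0.86, edgeR adjusted p = 9.83e-05), beside a median of 0.33 over all genes. In GRKO DMSO cells 21 of the 22 Nrtn counts came from culture 1, so the size of this difference depends on that culture. The exact two-sided permutation test gave 0.0179 for each genotype, the smallest that 5 against 3 samples allow. Tumors and cultures also differ in handling, which cannot be told apart from the tumor itself.

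Gdnf, the ligand of GFRA1, was sparse. Its counts were 1, 9, 20, 24 and 8 in parental control tumors, 14, 16, 5, 0 and 16 in parental GC, 0, 0, 5, 32 and 43 in GRKO control and 11, 20, 4, 0 and 1 in GRKO GC tumors. A count was present in 16 of 20 tumors, no level passed 2.64 CPM, and all 4 tumor groups overlapped. In cultures the counts were 0, 46 and 21 in parental DMSO, 17 and 17 in parental GC, 3, 7 and 5 in GRKO DMSO and 25, 3 and 5 in GRKO GC cells. No comparison called Gdnf: the log2 fold changes with GC were -0.22 in parental tumors (edgeR adjusted p = 0.964) and -1.23 in GRKO tumors (edgeR adjusted p = 0.600), and GRKO differed from parental DMSO cells by -2.39 (edgeR adjusted p = 0.236). Artn, the ligand of GFRA3, had a count in 14 of 20 tumors and 10 of 11 cultures, at most 35 counts in a tumor and 18 in a culture, and was not called in cultures or between tumors and cultures.

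**Figure D1:**
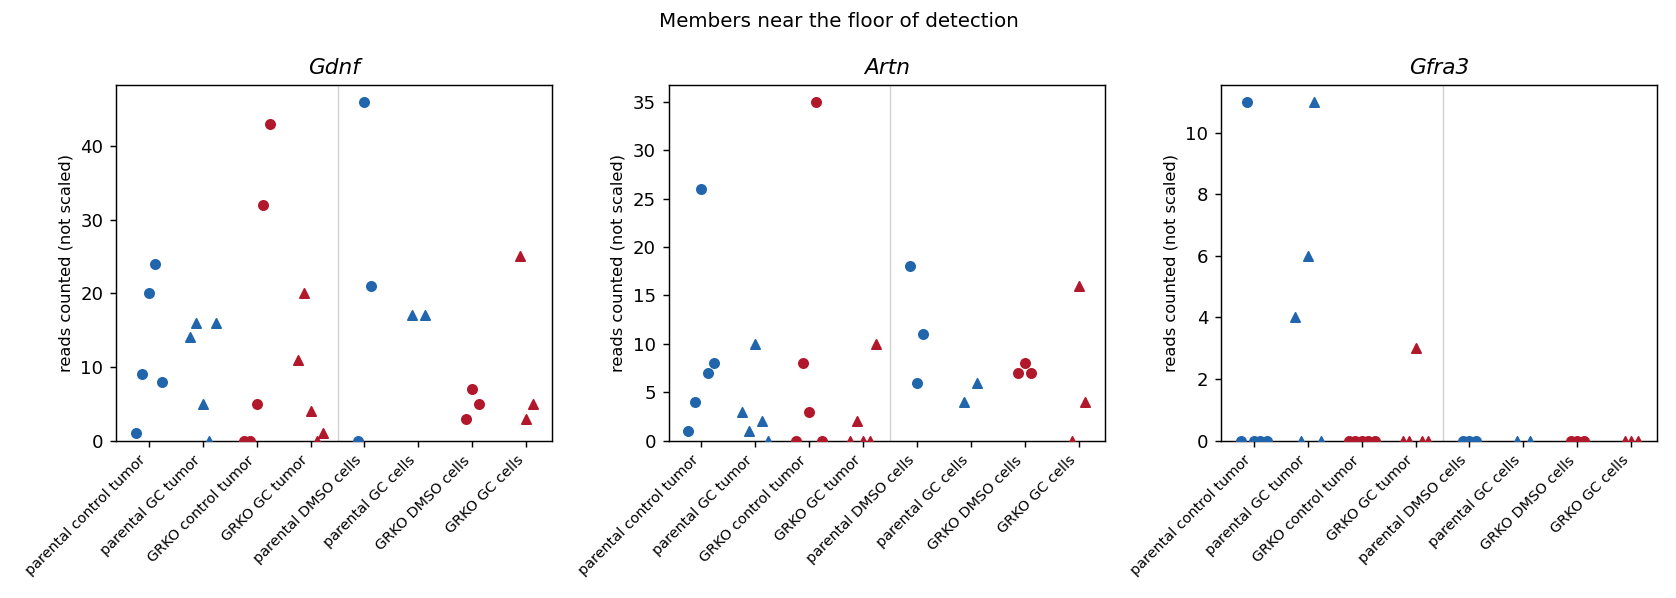
Reads counted for Gdnf, Artn and Gfra3 in each library, not scaled, with blue for parental, red for GRKO, circles for control or DMSO and triangles for GC. The 4 tumor groups overlap for Gdnf and for Artn, and Gfra3 has 0 counts in every culture.

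Gfra1, the co-receptor that GDNF prefers, lay on opposite sides of its controls under GC in parental and GRKO tumors. Parental control tumors had 9.62, 12.2, 14.2, 8.82 and 14.8 CPM and parental GC tumors 7.20, 8.37, 8.66, 5.07 and 7.07. Every parental GC tumor lay below every parental control, by a narrow margin between 8.66 and 8.82. GRKO control tumors had 21, 12.2, 19.6, 13.2 and 10.8 CPM and GRKO GC tumors 29.3, 23.2, 39.2, 23.4 and 40.2. Every GRKO GC tumor lay above every GRKO control. The mean was 0.610 times the control with GC in parental tumors and 2.02 times the control in GRKO tumors.

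These changes are descriptions with no test, since Gfra1 in tumors chose the members. On the log2 scale the GC effect on Gfra1 was -0.71 in parental and 1.02 in GRKO tumors, a difference of -1.73. With the share of the 50 most abundant genes as a covariate, an alternative added after seeing the data, the effects were -0.70 and 0.81 and the difference -1.51. GRKO exceeded parental tumors by a log2 difference of 0.36 without GC, where the groups overlapped and 2 of 5 GRKO tumors lay above all controls. With GC the log2 difference was 2.09, a ratio of means of 4.27, and the groups did not overlap.

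In cultures Gfra1 had 3.38, 2.28 and 3.53 CPM in parental DMSO, 0.966 and 0.859 (14 and 19 counts) in parental GC, 2.80, 6.40 and 2.53 in GRKO DMSO and 4.39, 2.46 and 3.03 in GRKO GC cells. Both parental GC cultures lay below all 9 others, which overlapped. The GC effect in parental cells was -1.74 (SE 0.50, edgeR adjusted p = 0.216), and in GRKO cells -0.25 (edgeR adjusted p = 0.976). Their difference was -1.49 (SE 0.64, edgeR adjusted p = 0.563). GRKO exceeded parental cells under GC by 1.85 (SE 0.50, edgeR adjusted p = 0.0568). DESeq2 gave that comparison an adjusted p of 0.0104 and edgeR with no filter on low counts 0.0431, in a range of 0.0104 to 0.308 over the alternatives. With the filter on low counts none of these passed in edgeR, and exact two-sided permutation tests of 3 against 2 or 3 against 3 cultures cannot go below 0.1.

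Gfra2, the co-receptor that neurturin prefers, separated the genotypes in opposite directions in tumors and in cultures. Parental control tumors had 19.8, 19.0, 15.5, 14 and 14.1 CPM and parental GC tumors 12.4, 39.5, 20.02, 22.1 and 14.1. GRKO control tumors had 110, 80.8, 40.5, 73.4 and 61.5 CPM and GRKO GC tumors 59.1, 52.6, 53.2, 46.6 and 44.5. Every GRKO tumor lay above every parental tumor, with parental GC tumor 2 at 39.5 closest to GRKO control tumor 3 at 40.5. Parental GC tumor 2 also had the lowest Tsc22d3 (181 CPM), Fkbp5 (38.6 CPM) and Nr3c1 (24.4 CPM) of its group. The log2 difference of GRKO from parental tumors was 2.15 without GC (4.44 times the parental mean) and 1.24 with GC (2.37 times), both as descriptions with no test. With the covariate for the 50 most abundant genes these were 1.88 and 1.27. The GC effect on Gfra2 was 0.39 in parental and -0.52 in GRKO tumors (-0.24 with the covariate), with overlap in both genotypes and no test.

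In cultures Gfra2 was lower in GRKO cells. Parental DMSO cells had 8.33, 10.96 and 5.64 CPM and parental GC cells 6.76 and 10.4, while GRKO DMSO cells had 1.97, 1.58 and 2.32 and GRKO GC cells 3.14, 2.84 and 3.66. Every GRKO culture lay below every parental culture. Under DMSO the means were 8.31 ± 2.66 and 1.95 ± 0.370 CPM (SD, n = 3 each), and the fitted log2 fold change was -2.09 (SE 0.31, edgeR adjusted p = 0.00173). Under GC the means were 8.60 ± 2.60 (SD, n = 2) and 3.21 ± 0.417 (SD, n = 3), a log2 fold change of -1.43 (SE 0.33, edgeR adjusted p = 0.0249). The exact two-sided permutation p was 0.1 for each, the smallest these group sizes give.

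The call on Gfra2 under GC depended on single cultures. Without parental GC culture 2 the edgeR adjusted p was 0.276, without GRKO GC culture 1 it was 0.0504 and without GRKO GC culture 2 it was 0.106. Fitting only the 2 groups compared gave an adjusted p of 0.0951, in a range of 0.00249 to 0.276 over the alternatives. The GC effect on Gfra2 was 0.05 in parental cells (edgeR adjusted p = 0.960) and 0.71 in GRKO cells (SE 0.31, edgeR adjusted p = 0.976), where the 3 GC cultures lay above the 3 with DMSO. Gfra3, the co-receptor that artemin prefers, had 11 counts in parental control tumor 2, 4, 6 and 11 in parental GC tumors 1, 3 and 4, 3 in GRKO GC tumor 3 and none elsewhere.

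**Figure D2:**
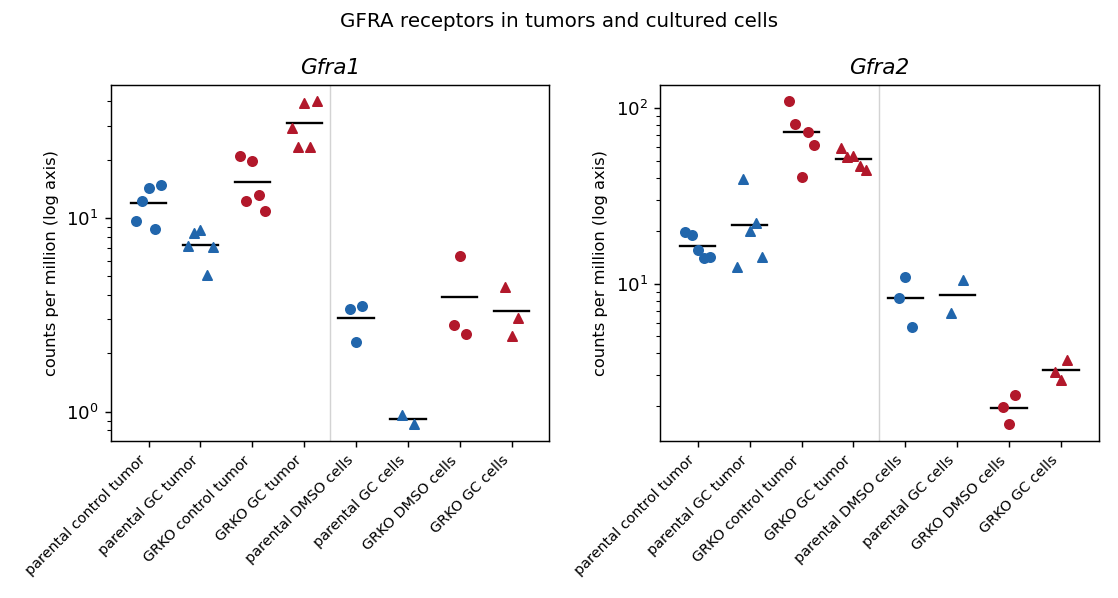
Gfra1 and Gfra2 in CPM on a log axis, 1 point for each library and a line at each group mean, with blue for parental, red for GRKO, circles for control or DMSO and triangles for GC. Gfra2 was above 40 CPM in every GRKO tumor and under 4 CPM in every GRKO culture.

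Ret, the kinase that the ligand and co-receptor complex activates, was low in tumors and at the floor in cultures. It had 6.24, 2.64, 4.73, 2.38 and 2.46 CPM in parental control tumors, 1.84, 3.77, 2.74, 6.06 and 1.48 in parental GC, 7.18, 7.59, 0.888, 4.67 and 1.35 in GRKO control and 1.34, 4.20, 2.20, 3.65 and 0.681 in GRKO GC tumors. The 4 tumor groups overlapped. The GC effect was -0.21 in parental tumors (edgeR adjusted p = 0.912) and -0.85 in GRKO tumors (edgeR adjusted p = 0.394), and their difference was 0.63 (edgeR adjusted p = 0.704). With the covariate the effect in GRKO tumors was -0.44 (edgeR adjusted p = 0.833) and the difference 0.19 (edgeR adjusted p = 0.989). In the cultures Ret had 2 counts in parental DMSO culture 3, 3 counts in GRKO DMSO culture 3 and 0 in the other 9. A count of 0 allows up to 3 counts, which is 0.134 to 0.208 CPM in a culture.

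As a description with no test, every control tumor had more Ret than every DMSO culture of the same genotype. The ratio of counts per library size was 89.5 in parental control tumors over parental DMSO cells (355 against 2 counts, 95% exact interval 24.6 to 742). For GRKO it was 74.5 (381 against 3 counts, 25.3 to 363). Neither an edgeR result nor a permutation p is given for these, since Ret passed the filter on low counts only through tumors. The intervals and floors cover counting error only. The kinase of the pathway was thus barely detected in cultures that held Gfra1 and Gfra2 transcripts, and which cells of a tumor gave its Ret reads was not tested.

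Ncam1, the adhesion molecule that can take the GDNF signal from GFRA1 without RET, was the member called for GC in cultures. In cultures it had 277, 283 and 277 CPM in parental DMSO and 561 and 551 in parental GC cells, while GRKO cells had 304, 390 and 318 with DMSO and 348, 350 and 300 with GC. Both parental GC cultures lay above all others, and the GRKO groups overlapped. The means were 279 ± 3.12 (SD, n = 3) and 556 ± 7.03 (SD, n = 2) CPM in parental cells without and with GC, 1.99 times as high with GC. The log2 fold change was 0.99 (SE 0.14, edgeR adjusted p = 0.00432). Without parental GC culture 1 it was 0.98 (edgeR adjusted p = 0.0671) and without culture 2 it was 1.01 (edgeR adjusted p = 0.0608), in fits where the remaining GC culture was assumed to vary like the other groups. Over all alternatives the adjusted p ran from 2.84e-08 to 0.0671. In GRKO cells it was -0.02 (edgeR adjusted p = 0.994).

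For Ncam1 in cells the genotype difference in GC response was 1.01 (SE 0.19, edgeR adjusted p = 0.0523), just outside the threshold. DESeq2 gave it an adjusted p of 0.000198 and edgeR with no filter on low counts 0.0398, and leaving out each library gave 0.0535 to 0.311. GRKO was below parental cells under GC by -0.74 (SE 0.14, edgeR adjusted p = 0.00709), and these groups did not overlap. Fitting only those 2 groups gave an adjusted p of 0.0651, leaving out parental GC culture 1 gave 0.0687 and leaving out parental GC culture 2 gave 0.0588, in a range of 3.00e-05 to 0.0687 over the alternatives. Under DMSO every GRKO culture was above every parental one, by 0.27 (SE 0.12, edgeR adjusted p = 0.207), which did not pass.

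In tumors Ncam1 had 120, 196, 97.3, 174 and 59.1 CPM in parental control, 210, 162, 258, 102 and 188 in parental GC, 54.4, 50.7, 31.7, 118 and 63.5 in GRKO control and 237, 170, 162, 56.0 and 142 in GRKO GC tumors. GRKO GC tumors other than replicate 4 lay above every GRKO control, and the parental groups overlapped widely. GC in GRKO tumors gave a log2 fold change of 1.27 (SE 0.36, edgeR adjusted p = 0.0383; exact two-sided permutation p = 0.0238), with means of 63.7 ± 32.7 and 153 ± 65.2 CPM (SD, n = 5 each). In parental tumors it was 0.51 (SE 0.36, edgeR adjusted p = 0.548), and the difference between genotypes was -0.76 (SE 0.51, edgeR adjusted p = 0.407; -0.17 and 0.984 with the covariate), so the GC effects were not shown to differ.

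The Ncam1 call in GRKO tumors was lost under several alternatives. With the share of the 50 most abundant genes as a covariate the log2 fold change was 0.67 (SE 0.44, edgeR adjusted p = 0.533), and GRKO control tumor 4, whose share was like that of other tumors, had the highest Ncam1 of its group at 118 CPM. Fitting only the 2 groups compared gave 1.26 (edgeR adjusted p = 0.0690), and adjusted p over the alternatives other than leaving out a library ran from 0.0100 to 0.533. The call was lost on leaving out any of GRKO control tumors 1, 2, 3 and 5 or GRKO GC tumors 1, 2, 3 and 5, with edgeR adjusted p from 0.0561 to 0.117. The summed fibroblast markers were higher with GC in both genotypes, as described with the cell types.

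Ncam1 was lower in tumors than in cultures. Parental control tumors (129 ± 56.0 CPM, SD, n = 5) were below parental DMSO cells by a log2 fold change of -1.14 (SE 0.37, edgeR adjusted p = 0.0111, exact two-sided permutation p = 0.0357). GRKO control tumors were below GRKO DMSO cells by -2.42 (SE 0.37, edgeR adjusted p = 2.08e-06, exact two-sided permutation p = 0.0179). The medians over all genes were 0.37 for parental and 0.33 for GRKO. With 46.7% and 54.8% of all genes called, these calls are no result about the family.

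**Figure D3:**
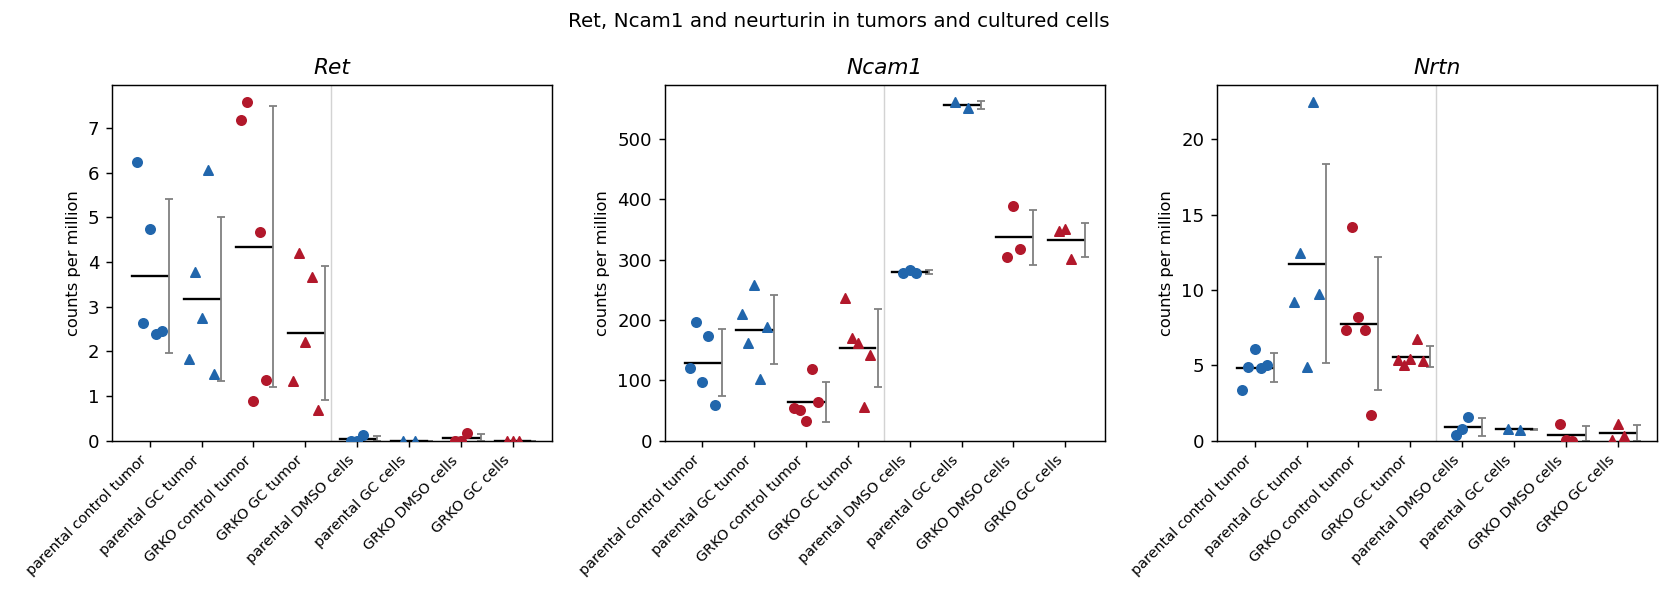
Ret, Ncam1 and Nrtn in CPM on axes from 0, 1 point for each library, a line at each group mean and a grey bar for the SD, with blue for parental, red for GRKO, circles for control or DMSO and triangles for GC. The 2 parental GC cultures reach 561 and 551 CPM of Ncam1, above every other library.

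The order of group means was read with each neighbour's spread. For Gfra1 GRKO GC tumors came first, then GRKO control and parental control tumors, which overlapped, then parental GC tumors, GRKO DMSO cells, GRKO GC cells and parental DMSO cells, each overlapping the next, and parental GC cells were lowest and apart. For Gfra2 GRKO control and GRKO GC tumors overlapped at the top, parental GC and parental control tumors overlapped below them, then parental cells with either treatment, then GRKO GC cells and last GRKO DMSO cells. For Ncam1 parental GC cells were highest and apart, then the overlapping GRKO cultures, then parental DMSO cells and then the 4 overlapping tumor groups. For Ret and Nrtn the 4 tumor groups overlapped above the cultures. Without a test, control tumors exceeded DMSO cells by a log2 difference of 1.91 in parental and 1.93 in GRKO for Gfra1, and by 0.95 and 5.19 for Gfra2.

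Other genes of the pathway came from 7 lists with 84 genes, of which 73 were tested in tumors and 55 in cultures. In GRKO tumors GC called 13 of 73 (17.8%, beside 6.42% of all genes), 8 higher and 5 lower, and the list medians ran from -1.15 to 0.31 beside a median of 0.05 over all genes. Of the adaptors and proximal signalling of RET, the phosphatase Ptpn11 (SHP2) rose by a log2 fold change of 0.89 (edgeR adjusted p = 0.0258), the adaptor Shc1 by 0.85 (0.0233), and the adaptor Dok2 had -1.08 (0.0299). Among co-receptors and regulators, Lrig1, which restrains receptor tyrosine kinases, rose by 1.59 (edgeR adjusted p = 0.0124), the ubiquitin ligase Nedd4 by 0.82 (0.00575) and Gas1, which binds RET, by 0.80 (0.0263), while the phosphatase Ptprf had -0.76 (0.0200). Among feedback inhibitors and targets of such kinases, Spry1 rose by 1.52 (edgeR adjusted p = 0.0399) and Phlda1 by 0.90 (0.0297), and the phosphatase Dusp5 had -2.27 (0.00210) and the transcription factor Etv5 -0.98 (0.0431). Spry1 and Etv5 are also in the list of genes induced by RET in the kidney bud. Among transcription factors, Gata3 had -1.06 (edgeR adjusted p = 0.0302), and Rarb was called with at most 1 count in every GRKO control tumor, so no fold is given. The lists of other family members and of NCAM partners had 0 called.

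These calls used the GRKO control tumors that stood apart. Over all genes, leaving out 1 library gave 303 to 2411 calls in place of 1022, so the share beside the pathway count moves widely. With the share of the 50 most abundant genes as a covariate Dusp5 had -1.003 (edgeR adjusted p = 0.305), Spry1 0.79 (0.616), Etv5 -0.23 (0.80), Lrig1 1.28 (0.176), Nedd4 0.80 (0.0703), Phlda1 0.77 (0.244), Gas1 0.81 (0.174), Shc1 0.83 (0.155) and Gata3 -1.08 (0.105), none called. Ptpn11 had 1.20 (edgeR adjusted p = 0.0450), Ptprf -1.12 (0.0128) and Dok2 -1.48 (0.0287), all called. Over 17 settings, which include leaving out each library, Dusp5 and Nedd4 were called in 16, Lrig1 in 15, Ptprf in 14, Ptpn11 in 13, Shc1 and Gas1 in 12, Phlda1 in 11, Dok2 and Gata3 in 10, Spry1 in 9 and Etv5 in 8. In parental tumors GC called 2 of 73, Pik3r1, a subunit of PI3 kinase, at 1.14 (edgeR adjusted p = 0.0402) and the immediate early gene Egr1 at -1.07 (0.0340), called in 9 and 11 of 17 settings. That is 2.74% of the pathway genes, beside 0.779% of all genes. The genotype difference in GC response of tumors called 0 of 73 with edgeR, where 0.195% of all genes were called. Of the 73, 20 had an unadjusted p under 0.05, beside 3192 of all 15919 genes. DESeq2 called 8 of the 73, and its count over all genes is given with the processing. GRKO against parental tumors had 4 of 73 past the thresholds without GC (5.48%, beside 2.25% of all genes) and 2 of 73 with GC (2.74%, beside 0.634%), from which nothing is read.

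In cultures GRKO against parental cells called 11 of 55 (20%) under DMSO and 9 of 55 (16.4%) under GC, beside 8.22% and 5.55% of all genes. These counts are no support for a difference in the pathway, since Gfra4, Ptprf and Tfap2a under DMSO and Ptprf and Tfap2a under GC had no GRKO culture at the level of the filter and passed it through parental cells. Gfra4, the co-receptor of persephin, had 1.94 to 4.19 CPM in parental DMSO cells and 3, 0 and 0 counts in GRKO DMSO cells. Ptprf had 5.76 to 6.96 CPM in parental DMSO and 0.156 to 0.377 in GRKO DMSO cells, and 0 counts in every GRKO GC culture, at least 67.8-fold lower than in parental GC cells. The transcription factor Tfap2a had 0 counts in all GRKO cultures, at least 11.4-fold lower under DMSO and at least 8.61-fold lower under GC. Phlda1 was higher by 0.75 under DMSO and 1.31 under GC. The Ets factors Etv1 and Etv5, targets of such kinases, had -1.09 and -0.86 under DMSO, and Etv1 had -0.86 under GC.

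Other genes called between GRKO and parental cells were Pik3r1 at -0.61, Dusp5 at 0.80, the receptor Il1rl1 at -2.06 and Gata3 at -1.65 under DMSO, and Dok1 at -0.94, Pik3r1 at -0.69, Ier3 at 1.12 and Dusp5 at 0.81 under GC. Phlda1 was called under all alternatives run in both comparisons, while Gata3 was called in 3, Pik3r1 in 4 and Il1rl1 in 5 of 12 settings under DMSO, where Dusp5 and Etv5 were called in 10. Under GC Pik3r1 was called in 3, Dusp5 and Etv1 in 7 and Dok1 and Ier3 in 10 of 11 settings. GC called 0 of 55 pathway genes in parental cells with edgeR (10 at an unadjusted p under 0.05, 2 called by DESeq2), where 0.878% of all genes were called, and 0 of 55 in GRKO cells (2 at an unadjusted p under 0.05, 0 called by DESeq2), where 0% were. The genotype difference in GC response of cells called 1 of 55 (1.82%, beside 0.295% of all genes). This was Ptprf, which passed the filter only through parental cells, so nothing is read from the call. Parental control tumors against parental DMSO cells called 46 of 73 (63%, beside 46.7% of all genes), 32 higher and 14 lower. The same for GRKO called 54 of 73 (74%, beside 54.8%), 33 higher and 21 lower. Many of the higher calls in each passed the filter only through tumors, so nothing is read from these shares.

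Markers of cell types were summed per tumor because tumors hold host cells. Endothelial genes (8 genes, Kdr the most abundant, none at the floor in every tumor) summed to 75.3, 65.6, 54.1, 78.5 and 57.2 CPM in parental control, 43.1, 28.2, 33.0, 43.3 and 42.9 in parental GC, 112, 107, 122, 115 and 110 in GRKO control and 60.2, 64.6, 55.2, 54.7 and 61.1 in GRKO GC tumors. GRKO exceeded parental tumors at each treatment without overlap. The sum was lower with GC in both genotypes without overlap. Gfra2 overlapped between control and GC in both genotypes. Pericyte and smooth muscle genes (7 genes) summed to 794, 516, 682, 493 and 704 CPM in parental control, 682, 564, 572, 813 and 784 in parental GC, 1283, 982, 1112, 936 and 1238 in GRKO control and 797, 1152, 1069, 1431 and 1057 in GRKO GC tumors. Their most abundant gene, Acta2, was also abundant in the cultures, at a mean of 3596 CPM in parental DMSO cells. GRKO control tumors lay above parental controls in this sum, and with GC the genotypes overlapped. The part of these cells in the result on Gfra2 was not tested.

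Fibroblast genes (9 genes, Col3a1 or Col1a1 the most abundant, none at the floor in every tumor of a group) summed to 6819, 7469, 7039, 7529 and 7207 CPM in parental control, 10785, 8394, 10784, 7773 and 10817 in parental GC, 3739, 4024, 4618, 6631 and 5195 in GRKO control and 10068, 8183, 11418, 7450 and 11287 in GRKO GC tumors. Every GC tumor lay above every control of its genotype. Among GRKO controls, replicate 4 had the highest sum. This tumor also had the highest Ncam1 and the lowest share of the 50 most abundant genes in its group. These cannot be told apart in a single tumor. The part of fibroblasts in the result on Ncam1 was not tested.

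For nerve and glia, where the family is best known, the neuron list (10 genes) summed to means of 231, 215, 302 and 251 CPM in parental control, parental GC, GRKO control and GRKO GC tumors, with Snap25 and Th at the floor. Nearly all of this sum was Uchl1, Tubb3 and Stmn2, and the 4 culture groups of the melanoma line had mean sums of 114 to 196 CPM with Uchl1 the most abundant. The Schwann cell list (12 genes) summed to 53.7, 64.2, 58.9 and 42.2 CPM, led by S100b and with Cdh19 at the floor. The melanocyte list (12 genes) summed to 47.2, 52.0, 35.6 and 41.1 CPM, led by Mitf. Means for skeletal muscle genes were 426, 453, 537 and 369 CPM, for keratinocyte and hair follicle genes 2113, 2215, 3958 and 1896, and for adipocyte genes 45, 41.8, 32.8 and 26.7. The adipocyte mean of GRKO control tumors was 20.2 CPM without tumor 4, which had 83.1. Macrophage genes summed to 5077, 6696, 7371 and 5768 CPM, T and NK cell genes to 104, 87.6, 146 and 83.2, and neutrophil genes to 329, 19.4, 536 and 143. The neutrophil mean of parental control tumors was 91.9 CPM without tumor 5, which had 1277 against 22.7 to 244 in the others. The part of these cells in any member's level was not tested.

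The genes whose tumor levels followed each member most closely are a description over 20 tumors that share groups and depth. By Pearson's r of log2(CPM + 1), Gfra1 was nearest to Dmrta1 (0.813), Pmaip1 (0.797) and Hoxa7 (0.777), and Gfra2 to Gpihbp1 (0.893), Phldb2 (0.879) and Mast4 (0.856). Gpihbp1 encodes a protein of capillary endothelium that holds lipoprotein lipase. Nrtn was nearest to Dnase1l2 (0.831), Mfap4 (0.804) and Gdap2 (0.798), and Ncam1 to Pura (0.939), Luc7l2 (0.925) and Zfp386 (0.924). Ret was nearest to Pex11g (0.794), Fitm2 (0.788) and Nfkbil1 (0.784), and Gdnf to RP24-364K9.2 (0.770), Tfap2e (0.769) and Celsr3 (0.757).

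The members lie on 8 chromosomes of the GRCm38 build, as placed by GENCODE M21: Gfra1 (ENSMUSG00000025089) at chr19:58235604-58455909, Gfra2 (ENSMUSG00000022103) at chr14:70890120-70979838, Gfra3 (ENSMUSG00000024366) at chr18:34689898-34720387, Ret (ENSMUSG00000030110) at chr6:118151745-118197718, Gdnf (ENSMUSG00000022144) at chr15:7810846-7837575, Nrtn (ENSMUSG00000039481) at chr17:56751325-56757530, Artn (ENSMUSG00000028539) at chr4:117926162-117929763 and Ncam1 (ENSMUSG00000039542) at chr9:49502136-49798925. Gfra2 and Gdnf are on the plus strand and the other 6 on the minus strand.

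The antisense genes Gm16277, which overlaps Gfra1 by 444 bases, and Gm11149, inside Ncam1, had 0 counts over all libraries. The strand setting of the counting is not given in the sources used here.

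Promoters of the members were searched because GR binds DNA at sites built from a hexamer spelled AGAACA or, on the other strand, TGTTCT. RefSeq's table of 300 base promoters for GRCm38.p6 matched 4 of the 8 members (Gfra1, Nrtn, Gdnf and Artn) with 5 promoters, and 1 of the 5, for Gdnf, held the hexamer. The other Gdnf promoter (chr15:7813477-7813776, plus strand) did not hold it and is not printed. Of all 32851 promoters in the table, 6233 (19.0%) held it. The promoters of Gfra1 (chr19:58455349-58455648, minus strand), Nrtn (chr17:56757499-56757798, minus strand) and Gdnf (chr15:7809798-7810097, plus strand) are printed 5' to 3' with the hexamer in capitals. They are shown for the co-receptor and the ligands described above, and a match or its absence is a description of these letters only.
Gfra1: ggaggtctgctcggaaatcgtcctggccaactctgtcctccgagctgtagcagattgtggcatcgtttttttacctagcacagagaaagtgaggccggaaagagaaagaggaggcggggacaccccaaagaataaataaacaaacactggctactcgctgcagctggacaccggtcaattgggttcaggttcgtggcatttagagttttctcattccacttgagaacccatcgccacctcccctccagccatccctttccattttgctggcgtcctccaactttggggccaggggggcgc
Nrtn: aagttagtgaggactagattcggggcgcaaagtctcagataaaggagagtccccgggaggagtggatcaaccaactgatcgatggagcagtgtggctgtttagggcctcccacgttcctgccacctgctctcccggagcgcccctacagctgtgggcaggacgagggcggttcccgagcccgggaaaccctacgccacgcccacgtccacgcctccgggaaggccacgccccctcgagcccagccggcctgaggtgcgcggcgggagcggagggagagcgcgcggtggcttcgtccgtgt
Gdnf: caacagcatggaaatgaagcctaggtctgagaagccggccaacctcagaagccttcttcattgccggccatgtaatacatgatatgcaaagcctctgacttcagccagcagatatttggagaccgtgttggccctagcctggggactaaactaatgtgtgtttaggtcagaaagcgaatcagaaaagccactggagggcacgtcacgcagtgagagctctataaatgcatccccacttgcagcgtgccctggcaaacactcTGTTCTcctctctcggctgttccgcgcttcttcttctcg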

How the data were processed

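The authors made stranded 3' end libraries from 500 ng of total RNA, sequenced them on a NovaSeq 6000, trimmed the reads with Trim Galore 0.6.5, aligned them with STAR 2.6.1d to GRCm38.75 and counted them per gene with featureCounts, using the Ensembl 75 annotation. The values used are raw counts per gene, as deposited by the authors, for 39179 genes in 31 libraries. FastQC 0.11.7 and MultiQC 1.4 are named for quality checks, and edgeR and DESeq2 are named for testing in the submitters' processing notes.

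Counts were scaled with TMM and tested with edgeR 4.0.16 (R 4.3.3) by its quasi-likelihood test with Benjamini-Hochberg adjustment over all genes at 0.5 CPM or more in at least 3 samples. That left 15919 genes in the fit of the 20 tumors, 12525 in the fit of the 11 cultures and 16273 in the joint fit used for tumor against culture. DESeq2 1.42.0 was an alternative. Exact two-sided permutation tests used mean log2(CPM + 1), for which the smallest p is 0.00794 with 5 against 5 and 0.1 with 3 against 3 or 3 against 2. Comparisons that share a group share its samples. The study describes the sequenced tumors as from separate mice. The library names of all cultures carry the same date and mark the replicates by a letter. The labels do not say whether replicate cultures were grown separately, and p-values for cultures then measure only the spread between these samples, which may be technical. Tables and plots used Python 3.11.15, numpy 2.4.6, pandas 2.3.3 and matplotlib 3.10.9, and the fits were tested on simulated counts.

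The members and gene lists were chosen with earlier results of these data known. Genes named are the 8 members, Nr3c1, Tsc22d3, Per1 and Fkbp5 as checks of the labels, the called genes of each pathway list, at most 4 per list and direction with the largest change first, and the 3 genes nearest to each member by correlation over tumors. For tumor against culture, and for GRKO against parental tumors, only counts of pathway genes are given. A called pathway gene that this rule would name is not reported here. The lists cover other ligands and receptors of the family, RET adaptors, co-receptors and regulators, feedback inhibitors and targets, genes induced by RET in the kidney bud, NCAM partners, transcription factors, and 12 cell types.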

Additional observations from a re-analysis of the deposited data

Results flagged for a closer look

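Gfra3 had 0.528 CPM (11 counts) in parental control tumor 2, with 0 in the other 4 tumors of its group. Nrtn had 6.78 CPM in GRKO GC tumor 4, against 5.01 to 5.44 in the other 4. Artn had 1.34 CPM in parental control tumor 3, against 0.0637 to 0.379 in the others, and 0.454 CPM in GRKO GC tumor 5, against 0 to 0.108. Each stood far from the rest of its group by Dixon's test, which chance alone passes in about 1 in 20 groups, and 4 of 30 groups passed it here.

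The effect of GC on Gfra1 differed between parental and GRKO tumors by -1.73 on the log2 scale, with every parental GC tumor below and every GRKO GC tumor above its controls. This difference was not tested, because Gfra1 in tumors chose the members. The log2 difference of GRKO from parental in Gfra2 was 2.15 in control tumors and -2.09 in DMSO cells. With GC it was 1.24 in tumors and -1.43 in cells. The genotypes did not overlap in cultures. They did not overlap in tumors either, but Gfra2 was chosen for being higher in GRKO tumors, so nothing is read from that. These opposite directions between tumors and cultures were not tested against each other, and the part of host cells in the tumors was not tested.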

How the results depend on the processing

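Of 1827 log2 fold changes recomputed under the alternatives, 1642 kept their direction and side of the threshold, 150 were weaker, 8 stronger and 24 reversed, and 3 with no test moved by more than the replicate spread. All 42 permutation p recomputed with a pseudocount of 0.1 stayed on their side. For those between culture groups this was fixed in advance, since their p cannot go below 0.1. Of 128 group means, 4 moved with TMM over all libraries: Artn to 0.281 CPM in parental GC and 0.384 in GRKO DMSO cells, and Ncam1 to 285 in parental DMSO and 571 in parental GC cells. The causes were not tested.

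The replicate numbers were not taken to pair the samples. The mean correlation of same-numbered libraries was 0.0583 over 30 tumor pairs, 16 of them over 0.1, and 0.0198 over 15 culture pairs, 7 of them over 0.1. For libraries with different numbers it was -0.0128 over 120 tumor pairs (42 over 0.1) and -0.0121 over 30 culture pairs (11 over 0.1). With the replicate number as a block, members called were 0 for GC in GRKO tumors (Ncam1 1.26, edgeR adjusted p = 0.0616), 1 for GRKO against parental GC cells (Gfra2 adjusted p = 0.0797) and 1 for parental tumors against cells (Nrtn 1.90, adjusted p = 0.238, and Ncam1 -1.03, adjusted p = 0.146). Under the block Artn in GRKO tumors against cells reversed to -1.74. The block gave 144 genes called in place of 31 for the difference of GC effects in tumors, 160 in place of 101 for GRKO against parental GC tumors and 63 in place of 110 for GC in parental cells, and the median of all genes for GC in GRKO tumors was 0.11 in place of 0.05.

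Members called were 0 for GC in GRKO tumors with only the 2 groups fitted and with the added covariate, and 0 for GRKO against parental GC cells with only the 2 groups. A minimum fold of 2 left 1 for GRKO against parental GC cells and 0 for GC in parental cells. DESeq2 called 1 for the difference of GC effects in tumors (Nrtn) and 1 for that in cells (Ncam1), which no filter also called (1). DESeq2 and no filter called 3 for GRKO against parental GC cells.

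Leaving out each library in turn, members called ran from 0 to 1 for GC in GRKO tumors and GC in parental cells, and from 0 to 2 for GRKO against parental GC cells. Log2 fold changes that changed sign ran as follows. For GC in parental tumors Ret ran from -0.58 to 0.061 and Gdnf from -0.51 to 0.24, and Gdnf from -0.045 to 1.98 for the difference in tumors. For GRKO against parental DMSO cells Gfra1 ran from -0.20 to 0.59. For GC in parental cells Gfra2 ran from -0.30 to 0.33, Gdnf from -1.10 to 0.61 and Nrtn from -0.70 to 0.31. For GC in GRKO cells Gfra1 ran from -0.52 to 0.30, Gdnf from -0.18 to 1.76, Nrtn from -1.02 to 3.98, Artn from -0.13 to 0.45, Ncam1 from -0.088 to 0.098 and Tsc22d3 from -0.19 to 0.070. Nrtn ran from -4.30 to 0.69 for the difference in cells, and Artn from -1.16 to 0.47 for GRKO tumors against cells. Of values with no test, Gdnf ran from -0.62 to 0.89 for GRKO against parental control tumors. Without a change of sign, Gdnf ran from -1.54 to -0.26 for GRKO against parental GC tumors and Gfra1 from 1.69 to 2.46 for GRKO tumors against cells.

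All genes called moved most for tumors. DESeq2 called 376 in place of 124 for GC in parental tumors, 1756 in place of 1022 for GC in GRKO tumors, 784 in place of 31 for their difference, 1001 in place of 358 and 293 in place of 101 for GRKO against parental control and GC tumors, 251 in place of 110 for GC in parental cells and 128 in place of 37 for the difference in cells. The added covariate, chosen after seeing the data, called 309, 204, 4, 12 and 218 genes for the same 5 tumor comparisons. Fitting only the 2 groups called 391 for GC in GRKO tumors, 159 for GRKO against parental control tumors, 230 in place of 695 for GRKO against parental GC cells and 59 for GC in parental cells. No filter called 49 and 64 for the differences in tumors and cells, and a minimum fold of 2 called 583 for GC in GRKO tumors and 238 for GRKO against parental control tumors. Leaving out 1 library gave 303 to 2411 for GC in GRKO tumors, 60 to 178 for GC in parental tumors, 0 to 1284 for their difference, 61 to 1762 and 40 to 114 for GRKO against parental control and GC tumors, 594 to 916 in place of 1030 for GRKO against parental DMSO cells, 322 to 842 for GRKO against parental GC cells, 31 to 78 for GC in parental cells and 17 to 43 for the difference in cells.

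Depth limits what can be said of Gfra3, Gdnf and Artn in tumors and cultures and of Ret and Nrtn in cultures, where libraries at or under 3 counts stand beside others of the same group above it or all are at that floor.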
